A study of Arabidopsis thaliana with 12 samples.

Results

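The second hour of dexamethasone (DEX) treatment was examined in root meristems of Arabidopsis thaliana by setting the 3 libraries taken after 2 h of DEX against the 3 taken after 1 h, 6 of the 12 libraries of the study, across all loci and with no control library. All 6 came from seedlings of one construct, pRPS5A-DOF2.1-GR, in the background Col-0. The RPS5A promoter is strong where cells divide, and it drives the transcription factor DOF2.1 joined to part of the glucocorticoid receptor (GR), which holds the protein in the cytosol until DEX, a synthetic steroid, binds. Seedlings grew for 5 days at 22 °C and were moved to medium with 10 µM DEX. The tips of 300 roots were pooled for each of 3 biological repeats per group. The other 6 libraries, 3 labelled control at 1 h and 3 after 4 h of DEX, serve here only to place the levels. The DEX 2 h and DEX 1 h seedlings share the construct, the drug and the move to new medium, so time on DEX, time since the move and time of day cannot be told apart.

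DOF factors are plant transcription factors with a single zinc finger that bind short AAAG sequences, and DOF2.1 is known for promoting cell divisions in the young vascular tissue of the root downstream of the TMO5 and LHW factors and of cytokinin. A GR fusion is switched at the level of the protein, so its transcript need not move when DEX is added. Heat shock factors switch on chaperone genes when proteins unfold, and abscisic acid and jasmonate are hormones of the responses to drying and to wounding.

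The DEX 2 h libraries held 16286243, 15633701 and 15341640 counts and the DEX 1 h libraries 17371847, 17522834 and 17162750. Values below are normalized counts scaled to a library of 1000000 (CPM), with the SD over 3 libraries where a mean is given. The first principal component of the 6 libraries, with 60.1% of the variance, placed the DEX 2 h libraries at 25.2, 27.1 and 34.2 and the DEX 1 h libraries at -44.7, -29.4 and -12.4. The DEX 1 h libraries thus stood farther apart from one another, with replicate 1 at one end and replicate 3 nearest to DEX 2 h. Their replicates 1 and 3 differed by a median of 0.213 in log2 units over loci, against 0.115 to 0.127 for the pairs of DEX 2 h libraries. The 7 root meristem markers summed to 104 to 113 CPM in DEX 2 h libraries and 98.2 to 102 CPM in DEX 1 h libraries. These sums include UPB1, a gene of the transition zone, at 22.6 ± 2.32 CPM in DEX 2 h libraries and 13.3 ± 0.328 CPM in DEX 1 h libraries. The median change of the 7 was 0.01 in log2 units. Of 6 shoot and leaf markers, WUS, CLV3 and LHCB2.2 had no count in either group.

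The induced factor was level over this hour. DOF2.1 (AT2G28510) had 69.3, 63.6 and 59.5 CPM in DEX 2 h libraries, against 71.4, 72.1 and 58.7 CPM in DEX 1 h libraries, and the groups overlapped. Its log2 fold change, DEX 2 h over DEX 1 h, was -0.07 ± 0.09 (SE; adjusted p = 0.592 by the quasi-likelihood test of edgeR). DOF2.1 averaged 85.3 ± 5.14 CPM in the control and 67.4 ± 7.53 CPM at DEX 1 h (SD, n = 3 each). At DEX 2 h and DEX 4 h it averaged 64.1 ± 4.92 and 51.6 ± 6.97 CPM, so it was not level over the 4 groups. Reads from the construct and from the resident gene were not separated. TET1/TRN2 (AT5G46700), the tetraspanin gene of the study's title, had 32.7, 37.0 and 38.9 CPM in DEX 2 h libraries, against 43.8, 36.5 and 31.8 CPM in DEX 1 h libraries, with a log2 fold change of -0.05 ± 0.12 (edgeR adjusted p = 0.784). Across the 4 groups it averaged 23.1 ± 0.548 CPM in the control, 37.4 ± 6.05 at DEX 1 h, 36.2 ± 3.16 at DEX 2 h and 40.2 ± 1.16 at DEX 4 h (SD, n = 3 each).

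Of 19405 loci tested, 5251 (27.1%) passed an adjusted p of 0.05, with 2443 (12.6%) higher and 2808 (14.5%) lower at DEX 2 h. Most changes were small, with a median of 0.47 in absolute log2 units among the loci called. A change of at least 2-fold was called at 612 loci (3.15%), of which 168 (0.866%) were higher and 444 (2.29%) lower, so that falls outnumbered rises at that size. The libraries of the 2 groups did not overlap at 8645 loci (44.6%). The count of calls rested on single libraries. It was 7616 without replicate 3 of DEX 1 h, 4000 without replicate 1 of DEX 1 h, 2526 without replicate 2 of DEX 1 h, and 2975, 2568 and 2567 without replicates 1, 2 and 3 of DEX 2 h. Scaling by library totals lowered the median of all loci by 0.08 in log2 units and moved the share of higher calls to 31.3%, from 46.5% with TMM scaling.

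**Figure D1:**
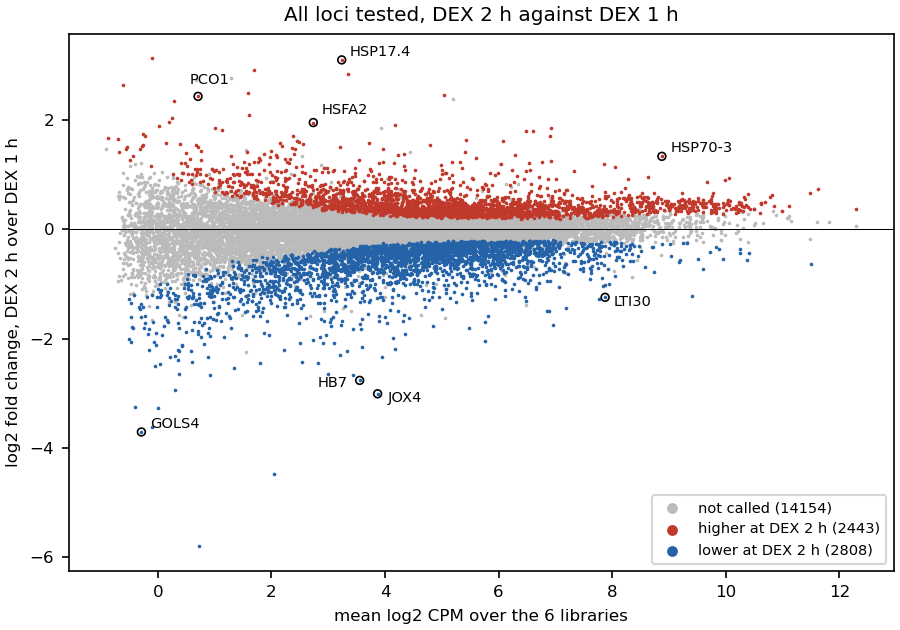
Log2 fold change (DEX 2 h over DEX 1 h, vertical axis) against mean log2 CPM over the 6 libraries for the 19405 loci tested, each point 1 locus. The 2443 loci called higher are red and the 2808 called lower blue, with 8 genes of the text ringed, among them HSP17.4 at 3.11 and JOX4 at -3.01.

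Heat shock genes led the rises. By a rule that took called loci with whole counts, no overlap between groups and a mean log2 CPM of at least 1, 7 of the 10 largest rises were at small heat shock proteins and their regulator HSFA2. The others were ATCTH, a zinc finger protein (1.92, a call lost without replicate 1 or 3 of DEX 1 h), SAD6 and TIN1, which come with their lists further on. Small heat shock proteins are chaperones that hold unfolding proteins in a soluble state, and HSFA2 is the factor that is known to prolong the heat shock response. The upstream regions of HSP17.4, HSP17.6C and HSFA2 are shown because they carry the sequence that heat shock factors bind, whose core searched here is GAANNTTC, with the letters found in capitals. Each is the stretch of 250 bases before the gene start in RefSeq TAIR10.1, 5′ to 3′ on the strand of the gene.
HSP17.4: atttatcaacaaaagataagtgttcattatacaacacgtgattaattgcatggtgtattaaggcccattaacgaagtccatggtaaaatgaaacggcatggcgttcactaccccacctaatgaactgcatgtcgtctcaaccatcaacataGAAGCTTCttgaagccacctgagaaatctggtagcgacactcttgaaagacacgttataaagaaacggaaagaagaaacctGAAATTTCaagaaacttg
HSP17.6C: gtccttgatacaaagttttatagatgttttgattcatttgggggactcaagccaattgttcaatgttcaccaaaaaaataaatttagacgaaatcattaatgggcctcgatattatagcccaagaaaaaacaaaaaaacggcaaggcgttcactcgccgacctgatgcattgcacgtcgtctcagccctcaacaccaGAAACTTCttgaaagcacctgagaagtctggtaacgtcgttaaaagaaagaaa
HSFA2: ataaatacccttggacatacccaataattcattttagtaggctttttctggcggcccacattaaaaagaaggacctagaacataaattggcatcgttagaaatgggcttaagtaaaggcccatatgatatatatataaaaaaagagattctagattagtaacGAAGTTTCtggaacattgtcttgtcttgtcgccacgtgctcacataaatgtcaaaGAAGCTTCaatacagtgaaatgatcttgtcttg

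These windows lie at chr3:16984868-16985117 on the minus strand for HSP17.4 (AT3G46230), chr1:19980049-19980298 on the plus strand for HSP17.6C (AT1G53540) and chr2:11135374-11135623 on the plus strand for HSFA2 (AT2G26150). In HSP17.4 the cores begin 99 and 18 bases before the gene start, in HSP17.6C 53 bases before it, and in HSFA2 88 and 33 bases before it. Over windows from 250 bases before to 50 after the start, either strand, the core was present in 41 of the 168 promoters of loci at least 2-fold higher (24.4%), in 40 of 438 promoters of loci at least 2-fold lower (9.13%) and in 2181 of 19315 promoters of all tested loci (11.3%). It was present in 11 of the 24 heat shock genes tested (45.8%). The doubled DOF core AAAGAAAG was present in 9.52% of the promoters at least 2-fold higher, 8.68% of those at least 2-fold lower and 7.41% of all. A match is only a run of letters, and binding was not measured.

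HSP17.4 had 14, 22.8 and 14.4 CPM in DEX 2 h libraries, against 1.29, 2.42 and 2.22 CPM in DEX 1 h libraries. Its log2 fold change of 3.11 ± 0.26 (edgeR adjusted p = 0.00015) was the largest rise named by the rule, and it stayed between 2.84 and 3.28 with any 1 library left out. HSFA2 had 11.6, 11.7 and 8.52 CPM in DEX 2 h libraries, against 1.24, 3.74 and 3.22 CPM in DEX 1 h libraries, a log2 fold change of 1.96 ± 0.31 (edgeR adjusted p = 0.00315). In both genes every DEX 2 h library lay above every DEX 1 h library, and replicate 1 of DEX 1 h was the lowest of the 6. HSP17.6A, HSP17.8, HSP17.6C and HSP17.6II rose by 2.92, 2.85, 2.49 and 2.09 in log2 units, and AT5G51440, another protein of the HSP20 type, by 2.47. Counts of such closely related genes can be affected by shared reads, and whole counts were required here for that reason.

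The wider list of heat shock genes held 24 tested members, of which 18 were called higher and 1 lower, with a median log2 fold change of 1.28, against 12.6% higher, 14.5% lower and a median of 0.00 over all loci. Among the 17 chaperones 15 rose and none was called lower. The highly expressed HSP70-3, an HSP70 chaperone of the cytosol, had 713, 683 and 610 CPM in DEX 2 h libraries, against 178, 287 and 328 CPM in DEX 1 h libraries, and rose 2.53-fold (log2 1.34 ± 0.20, edgeR adjusted p = 0.00287). HSP90-1, the heat-inducible HSP90 of the cytosol, had 164, 165 and 121 CPM in DEX 2 h libraries, against 30.1, 50.2 and 48.7 CPM in DEX 1 h libraries, with no overlap. The HSP90 co-chaperones HOP3 and ROF1 rose by 1.09 and 0.58 in log2 units. Of the 7 regulators, HSFA2, HSFA7A (1.23) and the coactivator MBF1C (1.41) rose, and HSFB1, a heat shock factor of the repressor class, fell by 0.57 in log2 units. HSP18.2 did not pass, at 1.92 ± 1.15 CPM in DEX 2 h libraries and 1.69 ± 0.0948 CPM in DEX 1 h libraries. Of the 18 rises 16 kept their call with each of the 6 libraries left out in turn. The call of HSP101 was lost without replicate 3 of DEX 1 h (log2 fold change 1.04 with all libraries), and that of HSP23.6, whose product is annotated as mitochondrial, without any 1 of the DEX 2 h libraries.

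The list did not climb steadily over the 4 groups. Its median deviation, in log2 units from the mean of the 6 libraries, was -0.18, -0.07 and 0.10 in the controls, -1.17, -0.41 and -0.33 at DEX 1 h, 0.63, 0.73 and 0.51 at DEX 2 h, and 0.76, 0.60 and 0.42 at DEX 4 h. The DEX 1 h libraries were the lowest, below the controls, with replicate 1 apart from the other two. HSP17.4 averaged 4.27 ± 1.65 CPM in the control, 1.98 ± 0.604 at DEX 1 h and 17.1 ± 4.93 at DEX 2 h (SD, n = 3 each), and it had 41.0, 39.5 and 70.7 CPM in the DEX 4 h libraries. HSFA2 averaged 8.43 ± 1.43, 2.73 ± 1.32, 10.6 ± 1.81 and 7.94 ± 0.979 CPM in the same 4 groups. HSP17.4 thus went on to a higher level at 4 h, while HSFA2 stood near its control level at both later times.

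**Figure D2:**
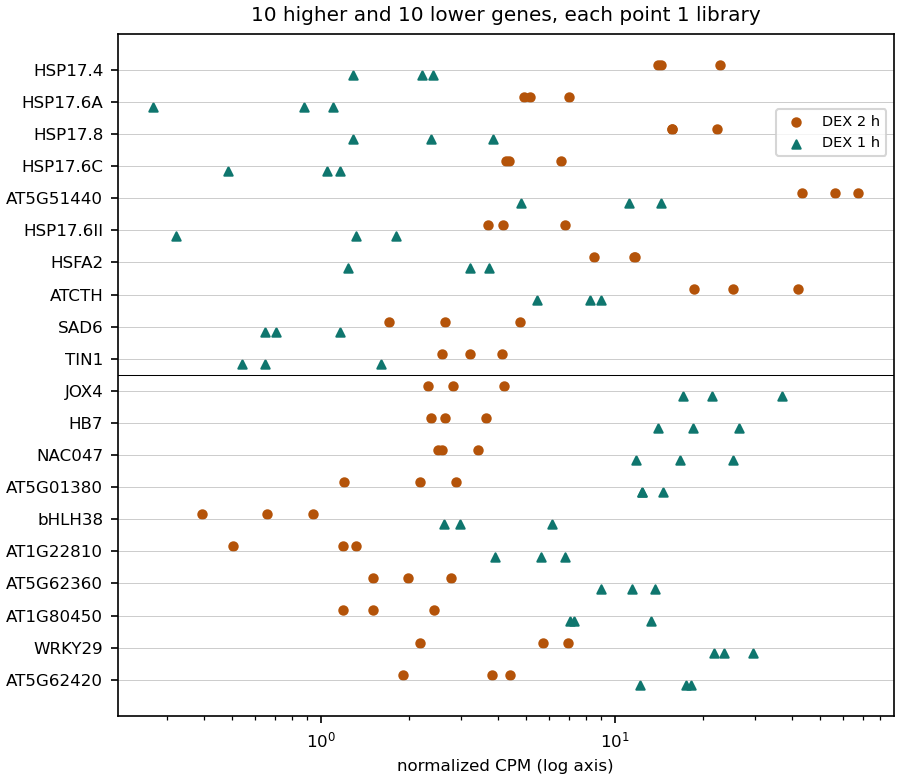
Normalized CPM (log axis) of the 10 genes with the largest rises (top) and the 10 with the largest falls (bottom) named by the rule, each point 1 library. DEX 2 h libraries are orange circles and DEX 1 h libraries green triangles, and the groups do not overlap in any of the 20, as the rule required.

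Chaperones of the endoplasmic reticulum rose too. The unfolded protein response is the programme by which cells add folding capacity to that compartment. Of its 16 tested genes 10 were called higher and none lower (median 0.41), against 12.6% and 14.5% of all loci. CNX1, calnexin, a lectin chaperone, had 721, 746 and 725 CPM in DEX 2 h libraries, against 384, 453 and 540 CPM in DEX 1 h libraries, and rose by 0.67 ± 0.12 in log2 units (edgeR adjusted p = 0.00293), although part of its counts were not whole. BIP1, the main HSP70 of the compartment, had 878, 862 and 862 CPM in DEX 2 h libraries, against 484, 563 and 692 CPM in DEX 1 h libraries, without overlap. TIN1, a gene induced by tunicamycin, had 2.58, 4.14 and 3.23 CPM in DEX 2 h libraries, against 0.538, 1.60 and 0.644 CPM in DEX 1 h libraries, and rose by 1.83. The nucleotide sugar transporter UTR1 rose by 0.92 and the J-protein ERDJ3B by 0.52. The regulators of the response did not pass, with BZIP60 at -0.19, BZIP28 at -0.16 and NAC103 at -0.13 in log2 units. The calls of BIP2, CRT1 and PDIL1-1 were each lost without replicate 2 of DEX 1 h, and without each of the DEX 2 h libraries, while the other 7 calls held without any 1 library. As with the heat shock list, the DEX 1 h libraries had the lowest medians of the 12, at -0.38, -0.15 and -0.03, against 0.00 to 0.30 in the controls.

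Core hypoxia genes are induced by factors that are stable only when oxygen is low. Of 14 tested, 6 were called higher and none lower (median 0.67), against 12.6% and 14.5% of all loci. The rises were at the plant cysteine oxidases PCO1 (2.44 ± 0.40) and PCO2 (1.71 ± 0.37), which mark those factors for decay, at SAD6, a fatty acid desaturase (1.86 ± 0.40), at ETR2, an ethylene receptor (0.89 ± 0.14), at PDC1, pyruvate decarboxylase (0.74 ± 0.17), and at the factor LBD41 (0.62 ± 0.16). PCO1 had 2.45, 2.04 and 3.5 CPM in DEX 2 h libraries, against 0.215, 0.440 and 0.820 CPM in DEX 1 h libraries, a low level at both times. PDC1 had 21.3, 13.1 and 18.9 CPM in DEX 2 h libraries, against 9.58, 11.6 and 10.7 CPM in DEX 1 h libraries. The call of LBD41 was lost without replicate 2 of DEX 1 h and without replicate 2 or 3 of DEX 2 h. ADH1, alcohol dehydrogenase, did not pass, with 7.93, 3.62 and 13.3 CPM in DEX 2 h libraries, against 1.72, 5.39 and 2.63 CPM in DEX 1 h libraries, which overlap.

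Jasmonate genes were among those that fell. The hormone is made from plastid lipids, acts through its isoleucine conjugate and is removed by oxidation. Of 29 jasmonate genes tested 12 were called lower and none higher (median -0.30), against 14.5% and 12.6% of all loci. Of the 12 falls 9 kept their call with each of the 6 libraries left out in turn. JOX4, one of the enzymes that hydroxylate jasmonic acid, had 2.83, 4.21 and 2.31 CPM in DEX 2 h libraries, against 17.1, 37.0 and 21.4 CPM in DEX 1 h libraries, and fell by 3.01 in log2 units (SE 0.38, edgeR adjusted p = 0.00311), the largest fall the rule named. CYP94B3, which oxidises the conjugate, had 5.92, 8.42 and 7.39 CPM in DEX 2 h libraries, against 22.1, 24.6 and 18.7 CPM in DEX 1 h libraries. In both, the groups were well apart. Enzymes of synthesis fell as well, with 6 of 11 lower, among them the allene oxide cyclase AOC2 (-2.31), the lipoxygenase LOX6 (-0.88), the conjugating enzyme JAR1 (-0.63) and the reductase OPR3 (-0.59). Among the JAZ repressors and MYC2 only JAZ3 (-0.31) and JAZ11 (-0.26) of 13 were called. The call of JAZ11 was lost whichever library was left out, that of JAZ3 without replicate 2 of either group. AOC1 and AOC2 are close copies with counts that were not whole, so their separate values are uncertain.

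The abscisic acid and dehydration list, with 34 tested members, had 16 called lower and 7 higher (median -0.26). Over all loci 14.5% were lower and 12.6% higher. Of the 16 falls 9, and of the 7 rises 4, kept their call with each of the 6 libraries left out in turn. The homeodomain factors HB7 and HB12, both known as targets of abscisic acid signalling, fell. HB7 had 3.65, 2.37 and 2.64 CPM in DEX 2 h libraries, against 26.5, 18.5 and 14.1 CPM in DEX 1 h libraries (log2 fold change -2.77 ± 0.27, edgeR adjusted p = 0.000432), and HB12 had 2.01, 2.17 and 1.98 CPM in DEX 2 h libraries, against 11.7, 8.20 and 6.21 CPM in DEX 1 h libraries. Of 7 phosphatases of clade A, which hold the pathway off, 5 were lower, with HAI1 at -1.32 ± 0.12 and ABI1 at -0.68 ± 0.10. HAI3 went the other way at 1.48 ± 0.41, on CPM below 1, and lost its call in 4 of the 6 fits without 1 library. The receptor genes that rose were PYL6 (1.22), PYL5 (0.87) and PYL4 (0.52), and all kept the call without any 1 library.

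PYL5 had 56.3, 54.5 and 48.5 CPM in DEX 2 h libraries, against 25.6, 27.5 and 34.2 CPM in DEX 1 h libraries. All of its DEX 2 h libraries lay above the DEX 1 h libraries. The catabolic enzymes CYP707A3 and CYP707A1 fell by 1.31 and 0.99 in log2 units. Of the 8 dehydration targets of the list that were tested, 4 were lower and 2 higher. Dehydrins are small hydrophilic proteins that accumulate in drying cells. The dehydrins LTI30, which is outside the list, and ERD10 were among the most abundant transcripts to fall. LTI30 had 139, 155 and 121 CPM in DEX 2 h libraries, against 307, 378 and 298 CPM in DEX 1 h libraries (log2 fold change -1.24 ± 0.12, edgeR adjusted p = 0.000155), and ERD10 had 409, 470 and 328 CPM in DEX 2 h libraries, against 889, 966 and 968 CPM in DEX 1 h libraries. RD29A, a classic marker of drying and cold, fell by 1.49 in log2 units, a call lost without replicate 3 of DEX 1 h. GOLS4, a galactinol synthase, had 2, 2 and 0 counts in the DEX 2 h libraries, against 19, 32 and 15 counts in the DEX 1 h libraries, while its relative GOLS1 rose by 1.24. For HB7 the group means were 9.0 CPM in the control, 19.7 at DEX 1 h, 2.89 at DEX 2 h and 2.63 at DEX 4 h, so that the DEX 1 h level was the highest of the 4.

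Other large falls came from several families. NAC047, a factor of the NAC family linked to ageing and stress, had 2.58, 3.42 and 2.51 CPM in DEX 2 h libraries, against 25.2, 16.7 and 11.8 CPM in DEX 1 h libraries. WRKY29, a factor of immune signalling, averaged 4.94 ± 2.47 CPM in DEX 2 h libraries and 25 ± 4.08 CPM in DEX 1 h libraries (SD, n = 3 each). Groups stood far apart in both genes, with falls of 2.66 and 2.33 in log2 units (adjusted p of 0.000959 and 0.0038 by edgeR). Others of the 10 largest falls were bHLH38, a factor of the iron deficiency response (-2.54), AT5G01380 (-2.66), the AP2/ERF factor AT1G22810 (-2.44), the pectin methylesterase inhibitor AT5G62360 (-2.44), the VQ motif protein AT1G80450 (-2.43) and the oxidoreductase AT5G62420 (-2.23). The regulators among them were low at DEX 2 h, with AT1G22810 at 0.503, 1.32 and 1.19 CPM, against 6.78, 5.61 and 3.92 CPM in DEX 1 h libraries. Of the more abundant transcripts, ERD7 had 84.2, 85.0 and 65.5 CPM in DEX 2 h libraries, against 207, 243 and 184 CPM in DEX 1 h libraries, and the glycosyl hydrolase GH9C2 fell by 1.06 ± 0.08.

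**Figure D3:**
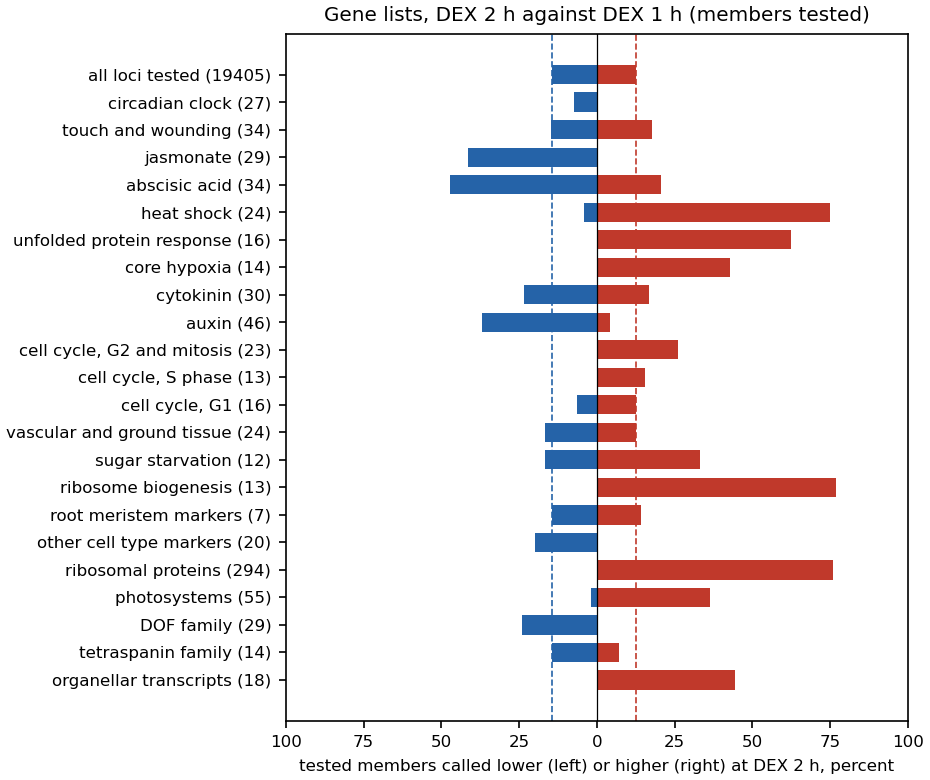
Share of the tested members of each gene list called lower (blue, to the left) or higher (red, to the right) at DEX 2 h, in percent, with the number tested in brackets. Dashed lines mark the shares over all 19405 loci, 14.5% lower and 12.6% higher.

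Auxin genes that were called were mostly lower. Of 46 tested, 17 were called lower and 2 higher (median -0.28), against 14.5% and 12.6% of all loci, and 27 did not pass. Of the 17 falls 11, and neither of the 2 rises, kept their call with each of the 6 libraries left out in turn. Aux/IAA proteins repress auxin response and are themselves induced by auxin, and 10 of 24 were lower and none higher, led among the calls that held without any 1 library by IAA18 (-1.13 ± 0.17) and IAA19 (-0.67 ± 0.12). IAA5 fell by 1.81 but had under 1.2 CPM in every library, and its call was lost without replicate 2 of DEX 1 h and without replicate 1 or 3 of DEX 2 h. GH3.6, which conjugates auxin to amino acids, averaged 15.8 ± 3.83 CPM in DEX 2 h libraries and 32.5 ± 4.88 CPM in DEX 1 h libraries (SD, n = 3 each). Of the efflux carriers, PIN3, PIN4 and PIN7, which act in the stele and root cap, fell by 0.47, 0.55 and 0.44 in log2 units. PIN2, the carrier of the epidermis and cortex, rose by 0.27, but every DEX group was below the control. It averaged 316 ± 1.7 CPM in the control and 138 ± 3.63 at DEX 1 h. At DEX 2 h and DEX 4 h it averaged 166 ± 3.74 and 127 ± 10.6 CPM. The rises of PIN2 and of the synthesis gene YUC3 (0.32) were lost with scaling by library totals, and in 3 and 5 of the 6 fits without 1 library. PIN3 had 86.7, 87.3 and 85.3 CPM in DEX 2 h libraries, against 128, 121 and 109 CPM in DEX 1 h libraries, a small change with clearly separate groups.

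Of 30 cytokinin genes tested, 5 were higher and 7 lower (median -0.22), against 12.6% and 14.5% of all loci. Type-A response regulators are early targets that damp cytokinin signalling, and 4 of 8 rose and none fell. ARR8 had 69.2, 66.3 and 70.9 CPM in DEX 2 h libraries, against 35.9, 39.4 and 41.3 CPM in DEX 1 h libraries (log2 fold change 0.82 ± 0.08, edgeR adjusted p = 0.000145). ARR4 and ARR3 rose by 0.54 and 0.63, and the call of ARR3 was absent from the fit on all 12 libraries. ARR5 and ARR7, often used as reporters of the response, did not pass, at 0.18 and -0.51. The LOG enzymes, which release active cytokinin, included 4 of 7 that were lower and none higher. LOG7 had 34.6, 39.8 and 29.2 CPM in DEX 2 h libraries, against 51.8, 58.5 and 61.9 CPM in DEX 1 h libraries, and LOG1 and LOG5 fell by 1.81 and 1.91 at levels under 4 CPM. AHP6, an inhibitor of the signal relay in the protoxylem, fell by 1.15, the receptor AHK3 by 0.52, and the cytokinin oxidases CKX3 and CKX1 moved apart, at 1.05 and -1.18, with the call of CKX1 lost without replicate 2 of DEX 2 h.

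Among 24 genes of vascular and ground tissue patterning, 3 were higher and 4 lower (median -0.13), close to the 12.6% and 14.5% of all loci, and the number lower ranged from 1 to 8 with 1 library left out. The 3 that rose belong to the ground tissue. MGP and JKD encode zinc finger proteins that work with SHR and SCR, and MYB36 directs the making of the Casparian strip. MGP had 21.3, 22.2 and 20.1 CPM in DEX 2 h libraries, against 10.5, 12.7 and 12.6 CPM in DEX 1 h libraries (log2 fold change 0.83 ± 0.10, edgeR adjusted p = 0.000514). JKD and MYB36 rose by 0.47 and 0.59. Of the 18 vascular regulators 4 fell and none rose. WOX4, a factor of the procambium and cambium, had 1.51, 1.58 and 1.39 CPM in DEX 2 h libraries, against 8.77, 4.73 and 3.63 CPM in DEX 1 h libraries (log2 fold change -1.94 ± 0.33, edgeR adjusted p = 0.00353). Over the 4 groups WOX4 averaged 0.753 CPM in the control, 5.71 at DEX 1 h, 1.49 at DEX 2 h and 1.72 at DEX 4 h, a peak at the first hour. The other 3 falls were small, at T5L1 (-0.39), CNA (-0.35) and PHV (-0.34), and each was lost without replicate 3 of DEX 2 h. TMO5 (-0.27), LHW (-0.01) and the related DOF genes PEAR1 (0.10) and TMO6 (0.16) did not pass.

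The DOF family had 7 of 29 tested members lower and none higher (median -0.19), against 14.5% lower and 12.6% higher of all loci. In either direction 24.1% of its tested members were called, against 27.1% of all loci. AT2G34140 had 14.7, 16.7 and 15.9 CPM in DEX 2 h libraries, against 41.5, 31.1 and 28.7 CPM in DEX 1 h libraries, and CDF3, of the cycling DOF factors that repress flowering genes, had 10.3, 9.60 and 7.79 CPM in DEX 2 h libraries, against 22.9, 16.1 and 12.9 CPM in DEX 1 h libraries. Both groups were separate. In the control these genes averaged 6.21 and 5.83 CPM, below either DEX group. Of 14 tetraspanin genes 1 was higher and 2 lower, TET12 (-0.77) and TET5 (-0.72), numbers no larger than the shares of all loci would give. The rise of TET10 (0.38) was lost in 5 of the 6 fits without 1 library.

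Most markers of other cell types did not pass. Of 20 tested, 4 were lower and none higher (median -0.18), against 14.5% lower and 12.6% higher of all loci, and the number lower ranged from 2 to 6 with 1 library left out. SUC2 and the root hair gene COBL9 (-0.39) kept their calls in all 6 such fits, and CASP4 (-0.48) and CASP2 (-0.28), of the Casparian strip, did not. SUC2, a sucrose transporter of phloem companion cells, had 24.2, 19.7 and 24.2 CPM in DEX 2 h libraries, against 55.3, 42.4 and 39.3 CPM in DEX 1 h libraries (log2 fold change -1.01 ± 0.13, edgeR adjusted p = 0.00104). The 3 phloem markers summed to 42.3 to 48.7 CPM in DEX 2 h libraries and 59.8 to 80.2 CPM in DEX 1 h libraries. The other 2, APL (0.12) and CALS7 (0.02), did not pass. Xylem markers summed to 132 to 155 CPM in DEX 2 h libraries and 156 to 194 CPM in DEX 1 h libraries, but none of the 3 tested was called. Markers of the differentiated endodermis summed to 185 to 246 CPM in DEX 2 h libraries and 244 to 281 CPM in DEX 1 h libraries, which overlap. Root cap markers overlapped as well, at 44.1 to 52.5 CPM in DEX 2 h libraries and 44.8 to 54.5 CPM in DEX 1 h libraries, with none of 4 called. In a bulk sample fewer cells of a type and less RNA per cell cannot be told apart, and the part of tissue composition in the falls of vascular and auxin genes was not tested. Among the meristem markers WOX5, a factor of the quiescent centre, fell by 1.22 ± 0.26 and UPB1, which controls the balance of reactive oxygen at the transition zone, rose by 0.76 ± 0.10, while PLT1 (0.13), PLT2 (0.16) and PLT3 (-0.02) did not pass.

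Nuclear genes of ribosomal proteins formed the largest group to rise, each by a small step. Of 294 tested 223 were higher and none lower, against 12.6% and 14.5% of all loci, with a median of 0.41 and none past 2-fold. The libraries did not overlap for 254 of them, against 44.6% of all loci. The median deviation of the list was 0.20, 0.23 and 0.21 in DEX 2 h libraries, against -0.42, -0.23 and 0.02 in DEX 1 h libraries, so that replicate 3 of DEX 1 h stood close to the DEX 2 h group. The number called fell to 43 without replicate 2 of DEX 1 h, and to 93, 45 and 76 without replicates 1, 2 and 3 of DEX 2 h, while the median stayed between 0.32 and 0.54. Scaling by library totals gave 204 higher and 2 lower. RPSAb, of the small subunit, had 57.3, 59.6 and 51.7 CPM in DEX 2 h libraries, against 26.1, 33.2 and 42.1 CPM in DEX 1 h libraries. The list was taken from product names. Beside those of cytosolic ribosomes it holds proteins of plastid ribosomes, such as RPL12-A (0.49) and RPL12-C (0.65), and of mitochondrial ones, such as RPS10 (0.35), and 171 of the 294 had whole counts. Nucleolar factors of ribosome biogenesis moved the same way, with 10 of 13 higher and none lower (median 0.30), led by FIB2 (0.50), NOP5-1 (0.46) and NOP56 (0.44). Their number fell to 1 without replicate 2 of DEX 1 h, to 3 without replicate 1 or 2 and to 5 without replicate 3 of DEX 2 h.

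Transcript length moved with the comparison. In the shortest of 4 equal classes of transcript length, up to 1255 bases, 1045 loci were higher and 359 lower (median 0.14), while in the longest class, from 2327 bases, 256 were higher and 1065 lower (median -0.11). Ribosomal protein transcripts are short, with a median of 1010 bases against 1740 over all loci tested. Within the shortest class the 233 ribosomal protein loci had 188 higher and none lower (median 0.43), and the other 4598 loci had 857 higher and 359 lower (median 0.13). With an offset for length fitted to each library, 184 ribosomal protein loci were higher, at a median of 0.30, and the calls over all loci were 2401 higher and 2695 lower. Replicate 3 of DEX 1 h was on the side of the DEX 2 h libraries in this trend too. The controls overlapped the DEX 1 h libraries, at -0.14 to -0.111 for the shortest class, and the DEX 4 h libraries lay beyond the DEX 2 h libraries, at 0.136 to 0.236. RNA quality was not measured in the files used here, and its part in the trend was not tested.

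**Figure D4:**
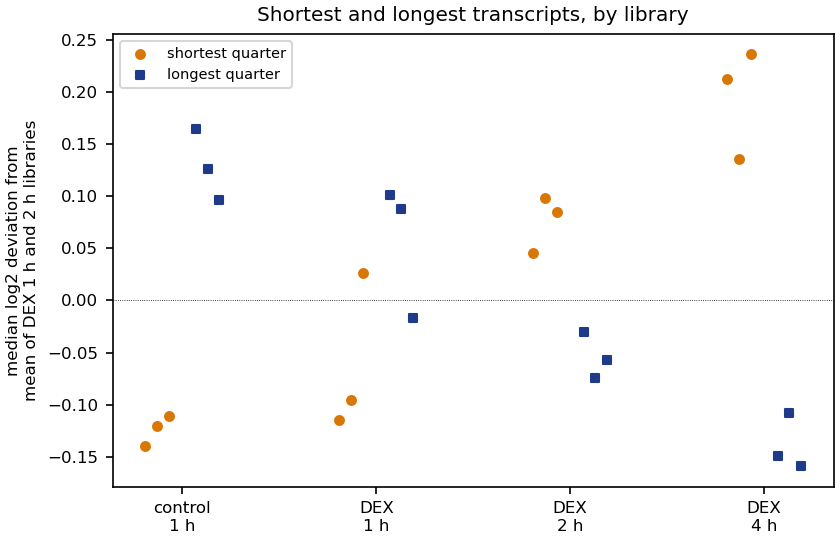
Median log2 deviation of the shortest (orange circles) and longest (blue squares) of 4 equal classes of transcript length in each library, from the mean of the DEX 1 h and DEX 2 h libraries, in order of treatment. The shortest class lay at 0.045 to 0.098 in DEX 2 h libraries and at -0.115, -0.096 and 0.026 in DEX 1 h libraries.

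Cell cycle genes changed little. The share called was 26.1% for G2 and mitosis, 15.4% for DNA replication and 18.8% for G1, against 27.1% of all loci. Over all loci 12.6% were higher and 14.5% lower. Of 23 genes of G2 and mitosis 6 were higher and none lower (median 0.15), with the mitotic cyclins CYCB1;1 (0.53 ± 0.11) and CYCA1;1 (0.49 ± 0.11) keeping their calls without any 1 library. CYCB1;1 had 25.4, 26.6 and 25.7 CPM in DEX 2 h libraries, against 15, 18.4 and 20.5 CPM in DEX 1 h libraries. The other 4 calls, such as AUR3 (0.46), were lost in 3 or more of the 6 fits without 1 library. Of 13 genes of DNA replication PCNA1 and TSO2 were higher, at 0.40 and 0.38, and both calls were lost without replicate 2 of DEX 1 h. Of 16 genes for G1 cyclins and inhibitors 2 were higher and 1 lower, namely KRP7 (0.78), KRP3 (0.40) and CYCD1;1 (-0.67), and none of these calls held in every fit without 1 library.

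Of 34 immediate early genes of touch and wounding 6 were higher and 5 lower, shares that stand near the 12.6% and 14.5% of all loci. The ethylene response factors ERF6 and ERF1A rose by 1.01 ± 0.12 and 1.08 ± 0.18, the call of ERF1A being absent from the fit on all 12 libraries, and CML12, a calmodulin-like protein, fell by 0.73 ± 0.08. Of 27 circadian clock genes 2 were lower, the evening factor BOA (-0.71 ± 0.12) and FKF1 (-0.60 ± 0.20, a call lost in 5 of the 6 fits without 1 library), and the number lower ranged from 1 to 6 with 1 library left out. CCA1 and LHY, the morning factors, did not pass, both at -0.32.

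The loci that changed at least 2-fold were placed by their mean at DEX 4 h. The DEX 4 h libraries were not part of the choice, but the DEX 1 h and DEX 2 h values were. That choice by itself favours few DEX 4 h means past the DEX 1 h mean. No share over all loci stands beside the positions relative to these 2 means. Of the 168 that rose, 93 had a mean at DEX 4 h above that at DEX 2 h (55.4%), 74 lay between the DEX 1 h and DEX 2 h means (44.0%) and 1 lay below that of DEX 1 h. Of the 444 that fell, 264 were lower still at DEX 4 h (59.5%), 176 lay between (39.6%) and 4 were above the DEX 1 h mean. Set against the control, which shares no library with this step, the DEX 4 h mean was higher for 148 of the 168 that rose (88.1%) and for 23 of the 444 that fell (5.18%), against 49.9% of all loci. The control mean itself lay between the DEX 1 h and DEX 2 h means for 123 of the 168 (73.2%) and 368 of the 444 (82.9%). For those loci the DEX 1 h and DEX 2 h levels lay on opposite sides of the control level, a count to which the choice of loci by their DEX 1 h and DEX 2 h values contributes.

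**Figure D5:**
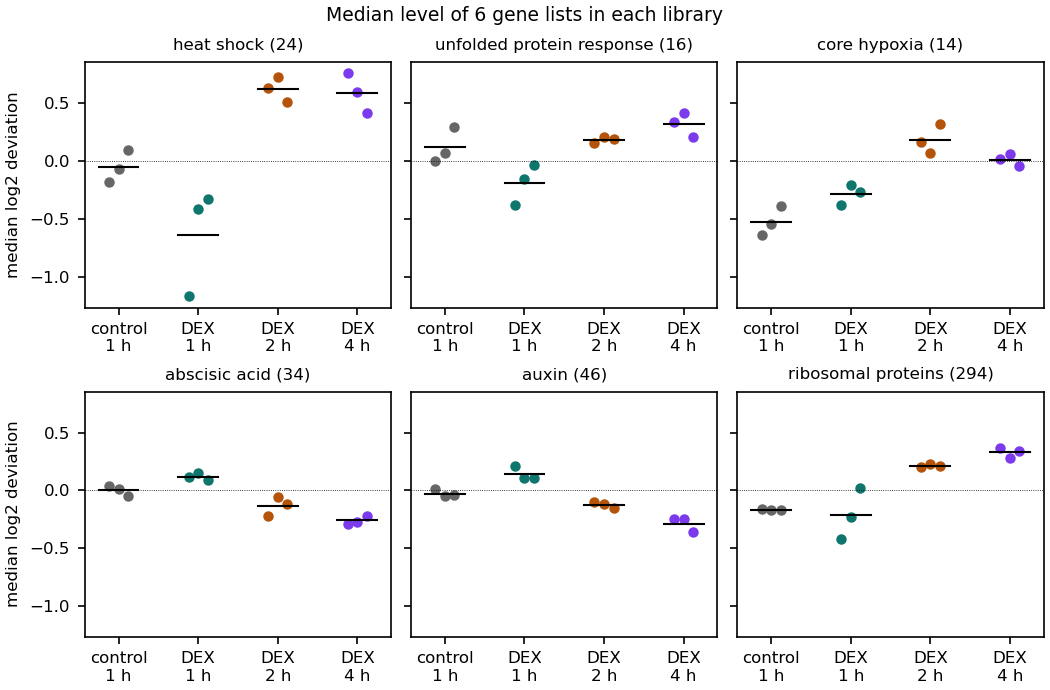
Median log2 deviation of the tested members of 6 gene lists from the mean of the DEX 1 h and DEX 2 h libraries, in each of the 12 libraries (points) with the group mean (line), in order of treatment. The heat shock list lay at -1.17 to -0.33 at DEX 1 h and 0.51 to 0.73 at DEX 2 h, and the abscisic acid list at 0.09 to 0.15 and -0.22 to -0.06.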

How the data were processed

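RNA libraries had been made with a stranded TruSeq mRNA kit, per the labels' protocols. The deposited files held expected counts per locus, of which 82.2% to 83.3% were whole (within 0.01), with no header. The submitters' processing notes name CASAVA, GSNAP, HTSeq, edgeR and the build TAIR10, with no versions or order, and the strand setting of the counting is not given in the sources used here. Names, transcript lengths and upstream sequence came from RefSeq TAIR10.1, in which 28009 of 28775 loci were matched by locus tag. Biological repeats were taken as labelled.

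Counts were rounded and tested in R 4.3.3 with edgeR 4.0.16 on the 6 libraries alone (filterByExpr with minimum count 10 and total 15, TMM, robust glmQLFit and glmQLFTest, Benjamini-Hochberg over the 19405 loci tested, called at an adjusted p under 0.05). Those loci held 99.94% of counts, and the common biological coefficient of variation was 9.26%. Log2 fold changes are DEX 2 h over DEX 1 h with their standard errors. CPM used TMM factors over all 12 libraries. List levels per library are medians of log2(CPM + 0.5). The scripts were tested on simulated data. Alternatives were RLE and library-total scaling, no filter, DESeq2 1.42.0, all 12 libraries, a replicate block, leaving out each library, stricter thresholds, whole counts only and, chosen after seeing the data, transcript length offsets.

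The comparison and the gene lists were chosen with earlier results of these data known, and a list is described by counts and medians without a set test. Named genes were the 10 highest and 10 lowest called loci whose log2 CPM averaged 1 or more, with no overlap between groups and whole counts, the 5 most abundant in each direction at least 2-fold changed, up to 3 called members per list and direction, DOF2.1 and TET1/TRN2. Other list members are named to frame a count.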

Additional observations from a re-analysis of the deposited data

How the results depend on the processing

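With totals of 15341640 to 17522834 counts, calls numbered 5251 (2443 higher, 2808 lower). They numbered 1968 (714, 1254) at an adjusted p under 0.01 and 612 (168, 444) at 2-fold. With 1 library left out they ranged from 2526 to 7616 (941 to 3738 higher, 1525 to 3878 lower), and those of 2-fold from 454 to 857. RLE scaling (5281), no filter (5179), DESeq2 (4484), all 12 libraries (6168) and transcript length offsets (5096) stayed within 1.5 times. The replicate block gave 5661 calls, and 3 named genes lost theirs, AT5G51440, AT3G15450 and MCCA. Same-numbered libraries correlated at 0.0676, -0.0765 and 0.0706 in their deviations from group means, so the numbers were not taken as pairs. Of 104 named genes called, 72 kept the call without any 1 library, 32 lost it at least once, and none changed direction.

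Medians of lists moved under library totals to -0.34 (abscisic acid), -0.36 (auxin), 0.07 (G2 and mitosis), -0.16 (S phase), -0.12 (G1), -0.06 (meristem markers), -0.26 (other cell types), 0.34 (photosystems) and -0.10 (tetraspanins), a scaling that shifts the median of all loci by -0.08. With length offsets they moved to -0.18 (abscisic acid), 0.00 (S phase), 0.07 (meristem markers), -0.25 (other cell types), 0.30 (photosystems) and -0.07 (tetraspanins). The DOF median was -0.35 with no filter and -0.34 with DESeq2. With 1 library left out the ranges were 0.03 to 0.28 (touch), -0.34 to -0.27 (abscisic acid), 0.49 to 0.72 (hypoxia), -0.34 to -0.27 (auxin), 0.12 to 0.17 (G2 and mitosis), -0.14 to -0.05 (S phase), -0.05 to 0.01 (G1), 0.03 to 0.35 (sugar starvation), -0.07 to 0.18 (meristem markers), -0.22 to -0.12 (other cell types), 0.35 to 0.43 (photosystems), -0.27 to -0.12 (DOF), -0.07 to 0.03 (tetraspanins) and 0.42 to 0.85 (organellar transcripts). The cause of the DOF and single-library shifts was not tested. The heat shock median stayed between 1.06 and 1.44.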

Other observations

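Nuclear genes of the photosystems and their antennae had 20 of 55 tested members higher and 1 lower (median 0.43), against 12.6% and 14.5% of all loci. Only 8 of the 20 rises and not the fall kept the call in all 6 fits without 1 library, and the number higher ranged from 12 to 21. NPQ4, a sensor of lumen acidity, had 12.8, 11.4 and 10.1 CPM in DEX 2 h libraries, against 4.36, 6.33 and 5.56 CPM in DEX 1 h libraries (log2 fold change 1.08 ± 0.16, edgeR adjusted p = 0.00121). The 6 shoot and leaf markers summed to 2.30 to 3.84 CPM in DEX 2 h libraries and 2.22 to 3.6 CPM in DEX 1 h libraries. Of 12 sugar starvation genes 4 were higher and 2 lower, against 12.6% and 14.5% of all loci. BT2, DIN10 and TPS9 rose by 1.09, 0.77 and 0.62 in log2 units, calls absent from the fit on all 12 libraries, and DIN6/ASN1, an asparagine synthetase, fell by 0.88, a call lost without replicate 1 of DEX 1 h.

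Beyond heat shock, CHIL, a relative of chalcone isomerase, had 341, 338 and 286 CPM in DEX 2 h libraries, against 91.8, 141 and 187 CPM in DEX 1 h libraries. The plastid chaperone cpHsc70-2 had 231, 216 and 200 CPM in DEX 2 h libraries, against 82.6, 106 and 119 CPM in DEX 1 h libraries. CYP83B1, an enzyme of indole glucosinolate synthesis, had 127, 139 and 116 CPM in DEX 2 h libraries, against 381, 277 and 262 CPM in DEX 1 h libraries.

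The lowest fold changes of all were at AT1G25472 (-5.81) and AT1G25055 (-4.48), whose deposited counts were not whole, and which were noticed after their values were seen. Of 279 organellar loci 18 passed the filter. Of those 18, 8 were called higher and none lower (median 0.51), against 12.6% and 14.5% of all loci. Of these 8, ATCG00920 and ATCG01210 had identical counts in every library, so that 1 signal was counted 2 times. None of the 8 calls held in every fit without 1 library.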
